A study of Mus musculus with 19 samples.

Results

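Cigarette smoke was compared with room air in the cerebral microvessels of mice, using the 4 libraries titled smoke and the 4 libraries titled air, chosen by their titles, of 19 libraries in the series. All came from male C57BL/6 mice from the same supplier, bought at 7 weeks of age and kept on a 12-h light cycle with lights on at 7 in the morning. The smoke libraries are labelled as exposed to smoke and the air libraries as exposed to room air; no allele, nicotine solution or other agent is named for either. The other 11 libraries are a further room air set titled Room-air (4), nicotine-free e-cigarette (Nic-free, 4) and e-cigarette with nicotine (Nic, 3). The age at collection, the dose, length and route of the smoke exposure, the hour of collection and any batch are not given in the sources used here, and no label ties the air set to the smoke group beyond its title. Equal replicate numbers are not said to mark related animals, nor is it said that each library is a separate animal, so the p-values measure the spread between these libraries. The study asks what e-cigarette vapour and smoke do to the blood-brain barrier.

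The blood-brain barrier is formed by brain endothelial cells, which are sealed by tight junctions and carry nutrients inward and drugs and waste outward through dedicated transporters. Pericytes, astrocyte endfeet and a basement membrane surround these cells, and Wnt signalling keeps their barrier character. Brain endothelium, like most cells, also runs a circadian clock, in which the activators Arntl (BMAL1) and Clock or Npas2 switch on the Per and Cry repressors, the Rev-erb receptors Nr1d1 and Nr1d2 and the output factors Dbp, Tef and Hlf. Hydrocarbons in tobacco smoke are classical ligands of the aryl hydrocarbon receptor, which induces cytochromes P450 such as Cyp1a1 and Cyp1b1.

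Depth was 9761373 to 13490373 counts per library in air and 7939180 to 12607538 in smoke. Reads that the counting assigned to no feature made up 33.6 to 37.5% of the reads tallied in air and 28.9 to 33.2% in smoke, ranges that did not overlap. Whether such reads lay between genes or within them is not given. Markers of brain tissue outside the vessel were abundant: per kb of transcript, Snap25 (synapse) stood at 80.9 to 212 CPM (counts scaled to a library total of 1000000) and Mbp (myelin) at 1166 to 2378 over the 8 libraries, beside 138 to 275 for the endothelial claudin Cldn5 and 8.85 to 22.5 for the endothelial cadherin Cdh5. RNA of other brain cells was thus present beside that of vessels, and fewer cells of a type and less RNA per cell cannot be told apart in such material. Choroid plexus and ependyma markers summed to 4536 to 28348 CPM in air and 2362 to 34681 CPM in smoke, highest in air 4 and smoke 3. On the first principal component, which held 33.56% of the variance, smoke 3 lay farthest out, at 42.55. The next component (23.81%) separated the groups, with air at 7.53 to 26.16 and smoke at −21.45 to −11.97.

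Of 15232 genes tested, 244 passed an adjusted p of 0.05 in edgeR's quasi-likelihood test with Benjamini-Hochberg adjustment, or 1.6% of those tested. Smoke was higher in 165 (1.08%) and lower in 79 (0.519%). An unadjusted p under 0.05 was found in 2939 of the 15232 genes. DESeq2 and limma voom, run as alternatives, called 913 of 24593 and 406 of 15232 genes. The counts of each list given further on are to be read beside these. The changes were moderate. The median log2 fold change was 0.63 among the higher genes and −0.52 among the lower ones, 23 rose by more than 1 and 1 fell by more than 1, and the median of all genes tested was 0.02. In each of the 244 genes the 4 smoke libraries lay wholly above or wholly below the 4 air libraries, as they did in 12.1% of all genes tested (6.91% higher, 5.21% lower).

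The count of calls leaned on single libraries. Leaving out 1 library at a time left 192 genes without air 1, 5 without air 2, 3 without air 3, 17 without air 4, 1 without smoke 1, 62 without smoke 2, 133 without smoke 3 and 11 without smoke 4. Without air 4 and smoke 3 together, the libraries highest in choroid markers, 28 genes passed, of which 25 were among the 244. Each of the 59 named genes that passed kept its direction in every alternative that tested it: all 20 for 57 genes, 19 for Atf3 and 17 for S100a8. The median number of alternatives in which such a gene passed was 10.

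The other room air set, titled Room-air, was set beside smoke and air in the called genes. Its libraries were deeper, at 25266790 to 30185056 counts each. With CPM scaled over all 19 libraries, the median of the Room-air set lay nearer the smoke median than the air median in 200 of the 244 genes (130 of the 165 higher, 70 of the 79 lower), within the smoke range in 117 and within the air range in 24. The nicotine-free median lay nearer smoke in 79 and the nicotine median in 161. The smoke libraries lay beyond both room air sets in 34 of the 244 genes, 26 of them higher and 8 lower, and beyond all 15 other libraries in 17. These are positions, with no test, in genes chosen for their difference between smoke and air. That choice alone can place another set away from air. The same positions were not counted over all 15232 genes tested, so no background share stands beside these counts.

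Clock genes changed in both directions. Of 15 genes of the core loop, 3 rose (Per1, Per2 and Per3) and 1 fell (Arntl), with a median log2 fold change of 0.22. Of 8 output and accessory factors, 4 rose (Dbp, Ciart, Nr1d1 and Nr1d2) and none fell, with a median of 0.55. As background, the activators are known to bind the E-box CACGTG, and the Rev-erb and ROR receptors the element ANTNGGTCA. The RefSeq windows shown run from 250 bases before to 50 after the start (GRCm38.p6), in lower case with motif matches on either strand in capitals. They are those of the called clock genes with the largest rise and the largest fall: Ciart at chr3:95882179-95882478 on the minus strand, with 3 E-boxes, and Arntl at chr7:113207261-113207560 on the plus strand, with 1 Rev-erb and ROR element. RefSeq gives Arntl another, overlapping window, chr7:113207215-113207514, which held 0 of the motifs searched and is not shown.
Ciart: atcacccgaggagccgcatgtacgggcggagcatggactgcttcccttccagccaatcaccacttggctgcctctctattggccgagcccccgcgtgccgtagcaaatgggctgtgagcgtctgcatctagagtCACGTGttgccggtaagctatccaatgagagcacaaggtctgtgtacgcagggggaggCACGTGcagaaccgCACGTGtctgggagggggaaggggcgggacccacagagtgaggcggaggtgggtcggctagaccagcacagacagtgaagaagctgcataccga
Arntl: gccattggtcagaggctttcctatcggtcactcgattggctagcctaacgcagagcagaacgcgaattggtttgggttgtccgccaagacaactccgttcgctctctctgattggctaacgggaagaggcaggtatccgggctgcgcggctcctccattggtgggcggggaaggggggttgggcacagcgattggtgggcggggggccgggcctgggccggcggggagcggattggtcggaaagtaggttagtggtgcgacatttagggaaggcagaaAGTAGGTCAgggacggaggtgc
An E-box was present in 7.15% of all 32851 windows of this length and the Rev-erb and ROR element in 2.24%. Of the 18 clock genes with a window, 5 held in any of their windows an E-box (Bhlhe41, Ciart, Cry1, Per1 and Tef), 2 the Rev-erb and ROR element (Arntl and Nfil3), 1 the D-box TTATGTAA (Per3; 0.938% of all windows) and 1 the cAMP response element TGACGTCA (Hlf; 1.79%). The window of Dbp held none of the 4. The clock counts are per gene over any of its windows, some genes having several, whereas the shares are per window, so they are not on the same unit. A match describes these letters and is not a site shown to be bound.

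Dbp, a transcription factor that drives clock output genes (chromosome 7, 45705088 to 45710203, GENCODE M21 on GRCm38), stood at 79.7, 70.8, 77.1 and 94.1 CPM in air 1 to 4 and at 165, 192, 141 and 174 CPM in smoke 1 to 4. Every smoke library was above every air library, with a log2 fold change of 1.06 ± 0.12 (SE) and an adjusted p of 0.00779 (edgeR). The call was lost in 2 of 20 alternatives, without smoke 1 (adjusted p 0.0601) and with an endothelial marker covariate (0.512). Per1, a repressor of the clock that glucocorticoids and cAMP also induce (chromosome 11, 69095217 to 69109960), was at 64.2, 89.1, 65.4 and 62.5 CPM in air and 141, 129, 132 and 136 CPM in smoke. Its log2 fold change was 0.94 ± 0.11 and its adjusted p 0.0101, and air 2 was the highest air library. Ciart, a repressor of the activator pair (chromosome 3, 95878503 to 95882251), read 9.22, 11.3, 10.1 and 11.1 CPM in air and 19.5, 18.8, 19.6 and 30.0 CPM in smoke (log2 1.08 ± 0.16, adjusted p 0.0241). Smoke 4 exceeded the other smoke libraries, and all 4 were above air. Arntl, the activator itself (chromosome 7, 113207465 to 113314126), fell from 55.5, 59.9, 47.1 and 50.6 CPM in air to 37.4, 37.8, 37.9 and 35.7 CPM in smoke (log2 −0.52 ± 0.09, adjusted p 0.0386). All smoke libraries lay close together and below the lowest air library.

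Per2, the partner of Per1, was at 60.0, 60.4, 58.5 and 78.3 CPM in air and 130.2, 88.9, 109.8 and 111 CPM in smoke, without overlap (log2 0.78 ± 0.13, adjusted p 0.0303). Per3, the third Per gene, rose by less, from 95.7, 85.6, 94.2 and 108 CPM to 147, 116, 141 and 162 CPM (log2 0.56 ± 0.11, adjusted p 0.0407). The Rev-erb genes Nr1d1 and Nr1d2, whose proteins repress Arntl, rose as well, by 0.69 ± 0.13 on the log2 scale for Nr1d1 (adjusted p 0.0386) and 0.40 ± 0.09 for Nr1d2 (0.0479). Nr1d1 ran from 53.5 to 72.5 CPM in air and 91.8 to 125 in smoke. Tef, an output factor related to Dbp, and Cry2, a repressor, missed the threshold at log2 0.43 ± 0.10 (adjusted p 0.0506) and 0.37 ± 0.09 (0.0536), though smoke and air did not overlap in either. The activator Npas2 was at log2 −0.32 ± 0.10 (adjusted p 0.109), again without overlap. Cry1 (0.27 ± 0.11, adjusted p 0.218), the repressor Bhlhe41 (0.22 ± 0.08, 0.169), Hlf (0.07 ± 0.17, 0.844) and Clock (−0.07 ± 0.12, 0.79) did not pass. With 1 library left out at a time, 0 to 4 members of the core loop and 0 to 4 of the outputs passed, and none of either passed without smoke 1; without air 4 and smoke 3, 2 and 1 did. The median of the outputs was 0.56 with endothelial markers as a covariate and that of the core loop 0.20, close to their values without it. With that covariate 0 members of either list passed. An unadjusted p under 0.05 was then found in 4 outputs and 8 core loop genes, beside 7 and 9 without it.

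**Figure D1:**
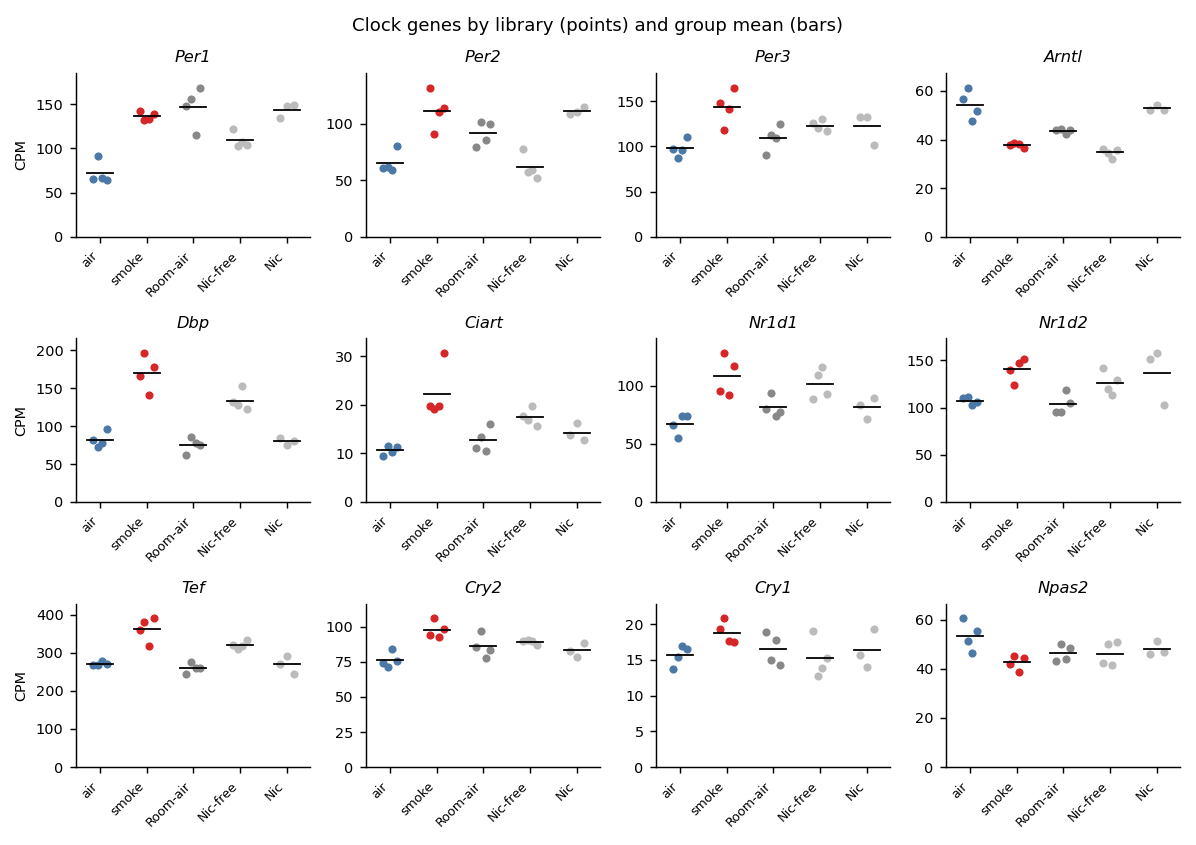
CPM (scaled over all 19 libraries, y axis from 0) of 12 clock genes in each library (points) and group mean (bars), for air, smoke and the 3 other groups. The 4 smoke libraries lie above the 4 air libraries for Dbp, Ciart, Per1, Per2 and Per3 and below them for Arntl, while the position of the Room-air set differs by gene.

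Across the other groups the clock genes did not share 1 order. On the scale over all 19 libraries, Dbp was at 81.2, 72.3, 78.2 and 96.3 CPM in air, 62.5, 85.2, 78.3 and 75.4 in Room-air, 84.2, 75.0 and 80.7 in nicotine, 132, 128, 152 and 123 in nicotine-free and 167, 196, 141 and 178 in smoke. Both room air sets and the nicotine group overlapped, nicotine-free was higher, and its top library exceeded the lowest smoke library. Per1 in the Room-air set, at 148, 156, 115 and 168 CPM, overlapped smoke (142, 132, 133 and 139) and was above air in all libraries. Arntl was at 44.0, 44.5, 42.2 and 43.7 CPM in Room-air, between air (56.6, 61.2, 47.8 and 51.8) and smoke (37.8, 38.5, 38.1 and 36.4), and lower still in nicotine-free, at 36.2, 34.7, 32.0 and 35.8. Ciart in Room-air, at 11, 13.4, 10.5 and 16.1 CPM, stayed below the lowest smoke library, as did Nr1d2 at 95.8, 95.2, 119 and 105 CPM against 140.4, 124, 147 and 152 CPM in smoke. Of the 8 called clock genes, Dbp, Ciart, Nr1d2 and Arntl were thus beyond both room air sets in smoke, and Per1, Per2, Per3 and Nr1d1 were not. The hour of collection, with which these genes are known to vary, is not given for any library, so an effect of the hour and one of smoke cannot be told apart.

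Of 24 transporters of the barrier, 7 rose and none fell, with a median log2 fold change of 0.41 beside 0.02 for all genes tested. Values were positive in 22 and negative in 2, and 0 passed without air 2, without air 3 or without smoke 1. The largest rise was in Slc7a5 (LAT1), the carrier of large neutral amino acids (chromosome 8, 121881150 to 121907694), at 88.5, 68.6, 71.6 and 84.4 CPM in air and 139, 140.4, 135 and 187 CPM in smoke. Its log2 fold change was 0.94 ± 0.13 with an adjusted p of 0.0164, and smoke 4 was the highest. Its partner chain Slc3a2 rose by 0.43 ± 0.09 (adjusted p 0.0443), and the cationic amino acid carrier Slc7a1 by 0.43 ± 0.09 (0.0448). The glucose transporter Slc2a1 (GLUT1; chromosome 4, 119108711 to 119137983) was at 325, 303, 207 and 249.9 CPM in air and 427, 389, 417 and 515 CPM in smoke, a log2 fold change of 0.69 ± 0.15 (adjusted p 0.0457). No smoke library reached down to the air range.

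The drug efflux pumps Abcb1a (P-glycoprotein; chromosome 5, 8660077 to 8748575) and Abcg2 (BCRP; chromosome 6, 58584523 to 58695676) rose too. Abcb1a read 129, 101, 78.7 and 91.3 CPM in air and 162, 155, 167 and 203 CPM in smoke (log2 0.78 ± 0.15, adjusted p 0.0386). Abcg2 read 48.5, 46.1, 31.3 and 37.8 CPM in air and 68.3, 58.3, 78.4 and 83.1 CPM in smoke (log2 0.82 ± 0.15, adjusted p 0.0386). In both genes air 3 was the lowest library. Mfsd2a, the lysophosphatidylcholine carrier that limits transcytosis (chromosome 4, 122946850 to 122961188), was at 41.5, 38.8, 34.5 and 33.6 CPM in air and 63.7, 64.1, 47.1 and 67.3 CPM in smoke (log2 0.71 ± 0.12, adjusted p 0.0309). Smoke 3 was lowest among the smoke libraries and still above air. Of the transporters that did not pass, the organic anion carrier Slco1a4 was at log2 0.61 (adjusted p 0.0784), Slc22a8 at 0.58 (0.0934), the pump Abcc4 at 0.66 (0.0791), the lactate carrier Slc16a1 at 0.07 (0.856) and the transferrin receptor Tfrc at 0.09 (0.753).

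Tight and adherens junction genes rose in 1 of 20 tested in edgeR, 6 in DESeq2 and 1 in limma voom, and 12 had an unadjusted p under 0.05 in edgeR. The median log2 fold change was 0.38, and 0.21 with endothelial markers, described with their own values further on, as a covariate. Cldn5, Cdh5, Esam and Pecam1 belong both to this list and to those markers. Jam2, a junctional adhesion molecule (chromosome 16, 84774123 to 84825928), was at 65.1, 67.7, 49.1 and 50.6 CPM in air and 82.3, 96.2, 82.7 and 95.4 CPM in smoke (log2 0.62 ± 0.12, adjusted p 0.0387), with every smoke library higher; with the endothelial covariate it was at 0.28. Occludin (Ocln) read 38.2, 25.0, 25.6 and 30.7 CPM in air and 41.0, 32.0, 66.1 and 44.7 CPM in smoke, and the groups overlapped (log2 0.62 ± 0.22, adjusted p 0.156). Cldn5, the dominant claudin of brain endothelium, also overlapped, at 389.7, 292, 196 and 244 CPM in air and 308, 370.5, 339 and 377 CPM in smoke (log2 0.31 ± 0.18, adjusted p 0.375). The scaffold Tjp1 (ZO-1) was at log2 0.29 ± 0.10 (adjusted p 0.158), with no overlap between groups. None of the 20 junction genes passed as lower.

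Of 17 genes of endothelial Wnt signalling 2 rose, with a median of 0.49. Lrp5, a Wnt co-receptor, was at 20.2, 13.4, 15.5 and 20.5 CPM in air and 26.4, 28.3, 38.4 and 28.0 CPM in smoke (log2 0.80 ± 0.16, adjusted p 0.0414), with smoke 3 apart at the top. Tnfrsf19 (TROY), a Wnt target at the barrier, was the other, at log2 0.45 ± 0.10 (adjusted p 0.0443). The target Apcdd1 (1.16, adjusted p 0.0526) and the receptor Fzd4 (1.54, 0.0817) had the highest log2 fold changes of the list and did not pass. Basement membrane and matrix genes rose in 3 of 20 (median 0.40): the laminin chain Lamb2 (0.67 ± 0.13, adjusted p 0.0387), the proteoglycan perlecan, Hspg2 (0.61 ± 0.13, 0.0461), and the metalloproteinase inhibitor Timp3 (0.59 ± 0.12, 0.0443). With the endothelial covariate Lamb2 was at 0.30 and Hspg2 at 0.31, and the Wnt list's median went from 0.49 to 0.14. The collagens Col4a1 and Col4a2 were at −0.03 (adjusted p 0.907) and 0.00 (0.992).

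**Figure D2:**
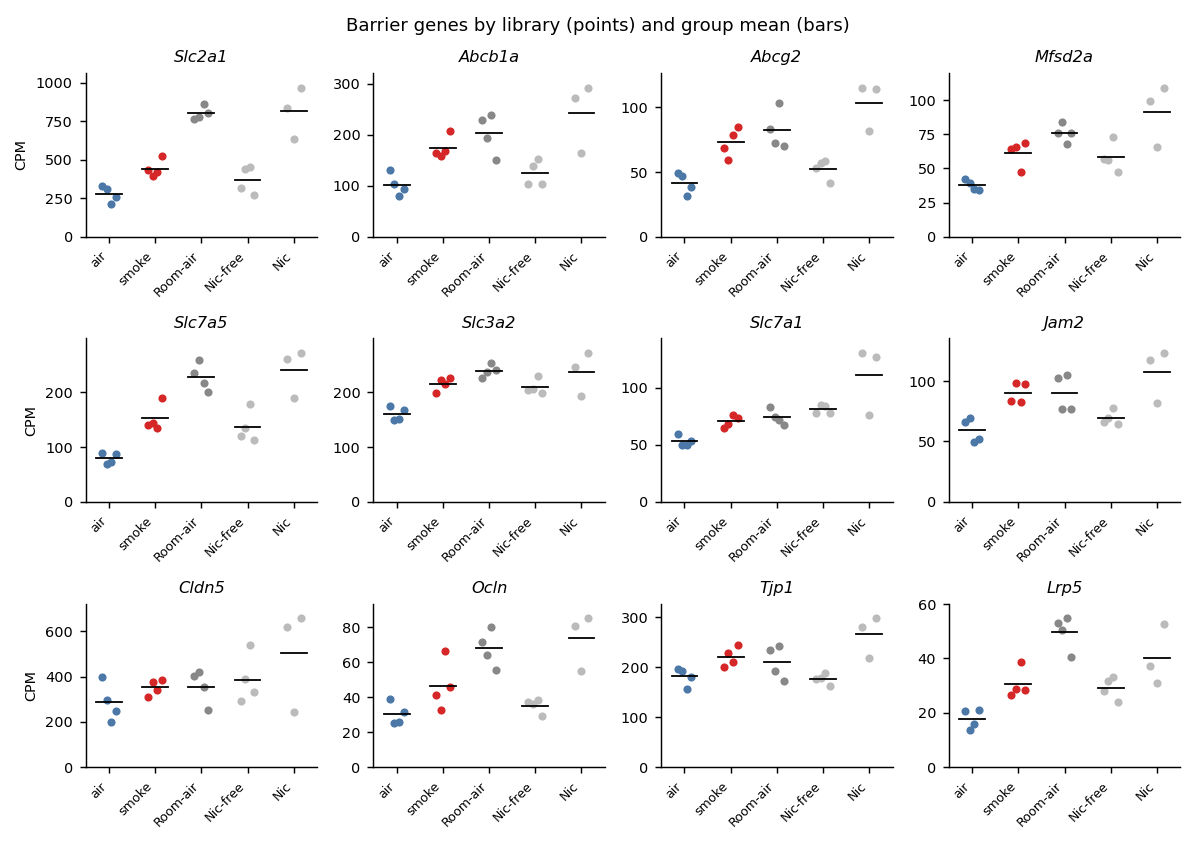
CPM (scaled over all 19 libraries, y axis from 0) of 12 barrier genes in each library (points) and group mean (bars), for air, smoke and the 3 other groups. Smoke exceeds air without overlap for Slc2a1, Abcb1a, Abcg2, Mfsd2a, Slc7a5, Slc3a2, Slc7a1, Jam2, Tjp1 and Lrp5 and overlaps it for Cldn5 and Ocln, and the Room-air set lies above smoke for Slc2a1, Slc7a5 and Lrp5.

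Endothelial markers moved with these genes. The 20 markers summed to 3158, 2909, 1848 and 2230 CPM in air 1 to 4 and 3425, 3483, 3738 and 4278 CPM in smoke 1 to 4, a ratio of 1.47 without overlap, and air 3 was lowest. All 20 had positive log2 fold changes, from 0.20 to 1.14 with a median of 0.58, and 3 passed: Slc2a1, Abcb1a and Itm2a. Itm2a, a membrane protein enriched in brain endothelium (chromosome X, 107397099 to 107403376), read 173, 115, 94.8 and 116 CPM in air and 244, 223, 312 and 319 CPM in smoke (log2 1.14 ± 0.19, adjusted p 0.0307). Pericyte markers had a median log2 fold change of 0.39, with 0 of 10 past the threshold in edgeR, all 10 at an unadjusted p under 0.05 and 1 past it in DESeq2, and their sums, 636 to 1045 CPM in air and 1013 to 1349 in smoke, overlapped. Smooth muscle markers passed in 1 of 9 (median 0.42), the cytoskeletal smoothelin, Smtn (0.65 ± 0.14, adjusted p 0.0443).

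With the endothelial marker level of each library as a covariate, 0 of the 15232 genes passed in edgeR, and 1153 had an unadjusted p under 0.05 beside 2939 without the covariate. All 244 called genes kept their sign. Their log2 fold changes were 0.877 times those without it at the median, and their standard errors were 1.65 times as large. The log2 fold change of Slc2a1 went from 0.69 to 0.19 ± 0.17 (SE), of Abcb1a from 0.78 to 0.28 ± 0.15, of Abcg2 from 0.82 to 0.31 ± 0.16 and of Slc7a5 from 0.94 to 0.71 ± 0.20. The median of the transporter list went from 0.41 to 0.23. Slc2a1, Abcb1a and Itm2a are themselves among the markers that made the covariate. So are Slco1a4 of the transporter list and Cldn5, Cdh5, Esam and Pecam1 of the junction list. These genes are thus adjusted partly for themselves. As the marker sums of smoke and air did not overlap, endothelial RNA content and the exposure cannot be told apart. Of the 59 named called genes, 21 shrank by over 1.5 times with the covariate (16 of 42 higher, 5 of 17 lower) and 0 grew by as much. Those furthest reduced after Slc2a1 were Slc40a1, from 0.68 to 0.20 ± 0.17, and Smtn, from 0.65 to 0.21 ± 0.16, and Itm2a went from 1.14 to 0.56 ± 0.20. None of the 8 called clock genes moved by over 1.5 times. Nr1d2 shrank most, from 0.40 to 0.28 ± 0.15, Ciart went from 1.08 to 0.90 ± 0.28 and Per1 from 0.94 to 0.82 ± 0.19. Dbp went from 1.06 to 1.14 ± 0.20, Nr1d1 from 0.69 to 0.86 ± 0.21 and Arntl from −0.52 to −0.68 ± 0.14. Cry1, which did not pass, went from 0.27 to 0.52 ± 0.17. The smooth muscle median turned from 0.42 to −0.30. Without air 4 and smoke 3, 2 transporters and none of the endothelial markers passed. With 1 library left out at a time, 0 to 8 transporters and 0 to 9 endothelial markers passed.

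**Figure D3:**
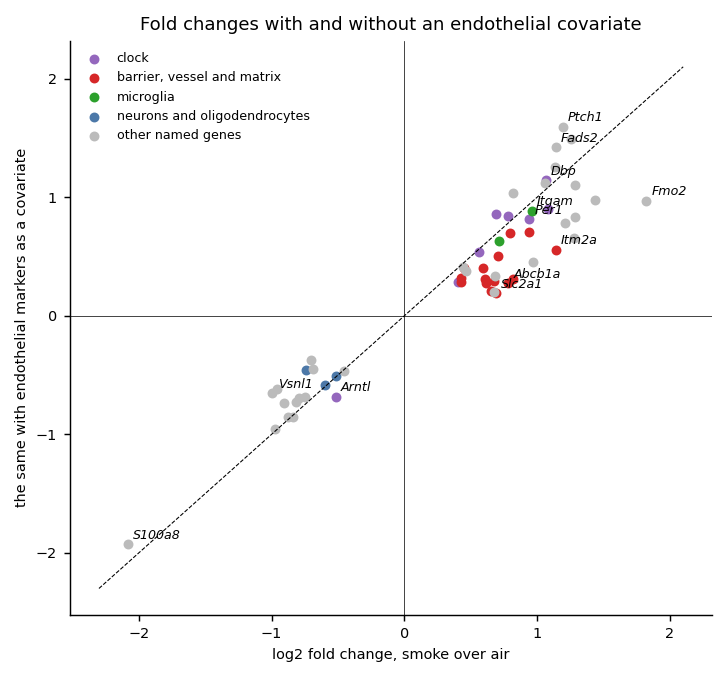
Log2 fold change, smoke over air, of the named called genes other than Gh without (x axis) and with (y axis) endothelial markers as a covariate; the dashed line marks equal values. The clock genes lie on both sides of the line, transporters such as Slc2a1 and Abcb1a lie below it, and no gene changes sign.

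In the Room-air set the called transporters overlapped smoke or lay above it. Slc2a1 was at 764, 781, 864 and 802 CPM there, on the scale over 19 libraries, beside 431, 397, 419 and 525 in smoke and 332, 309, 209.6 and 256 in air. Slc7a5 was at 236, 259, 218 and 199.7 CPM in Room-air and 140.2, 143, 135 and 190.2 in smoke, again without overlap and with Room-air the higher. Abcg2, at 83.3, 72.3, 103 and 70.3 CPM, and Abcb1a, at 229.8, 194, 239 and 151 CPM, overlapped smoke. None of the 7 called transporters was beyond both room air sets in smoke. Endothelial markers made up 0.3645 to 0.5151% of counts in Room-air, 0.182 to 0.3247% in air and 0.3252 to 0.432% in smoke. A link between these shares and the transporter levels was not tested.

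Genes known to respond to smoke constituents were read in 3 lists. Of 7 aryl hydrocarbon receptor genes tested, 0 passed in edgeR, DESeq2 or limma voom, 0 had an unadjusted p under 0.05, and the median was 0.02. Cyp1a1, the classical target, had 2 counts in the air libraries and 1 in the smoke libraries together, at most 0.102 CPM in any, and was not tested. Cyp1b1 was at 9.75, 10.8, 6.25 and 6.5 CPM in air and 5.96, 5.80, 10.9 and 14.1 CPM in smoke, widely overlapping (log2 0.17 ± 0.30, adjusted p 0.804). The repressor Ahrr (−0.28 ± 0.21, adjusted p 0.496), Tiparp (0.36 ± 0.17, 0.277) and Nqo1 (−0.09 ± 0.46, 0.938) did not pass either. Of 18 genes of xenobiotic metabolism 2 rose, with a median of 0.31. Fmo2, a flavin-containing monooxygenase that oxidises foreign amines and sulfur compounds (chromosome 1, 162874317 to 162898726), was at 6.82, 4.57, 3.39 and 3.58 CPM in air and 14, 12.1, 16.7 and 22.1 CPM in smoke, with a log2 fold change of 1.82 ± 0.25 and an adjusted p of 0.0209. All smoke libraries were above air, and with the endothelial covariate the value was 0.97 ± 0.25. In the Room-air set Fmo2 was at 13.3, 9.13, 18.2 and 9.90 CPM, overlapping smoke. Cyp2d22, a brain cytochrome P450 with close relatives in its cluster that counting could mix, was at log2 0.44 ± 0.09 (adjusted p 0.0443).

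Of 24 NRF2 and antioxidant genes, 0 passed in edgeR, 2 in DESeq2 and 1 in limma voom. In edgeR 6 had an unadjusted p under 0.05, beside 2939 of all 15232 genes. The median was 0.08. Hmox1, haem oxygenase and a standard oxidative stress target, was at 3.45, 4.88, 2.94 and 4.71 CPM in air and 4.44, 4.99, 6.62 and 5.81 CPM in smoke (log2 0.47 ± 0.21, adjusted p 0.245). Iron and haem genes rose in 3 of 13, with a median of 0.27: the iron exporter ferroportin, Slc40a1 (0.68 ± 0.15, adjusted p 0.0495), and Alas1 (0.47 ± 0.09, 0.0414) and Alas2 (1.26 ± 0.24, 0.0387), the general and erythroid enzymes that start haem synthesis. Among 13 genes of NADPH oxidases and nitric oxide synthases, with a median of 0.35, Gch1 rose, the first enzyme of tetrahydrobiopterin synthesis (chromosome 14, 47153895 to 47189413). It was at 4.95, 4.98, 3.24 and 3.11 CPM in air and 8.98, 10.4, 9.04 and 9.43 CPM in smoke (log2 1.21 ± 0.18, adjusted p 0.0248), without overlap, and the endothelial synthase Nos3 was at 0.45 (adjusted p 0.243). With the endothelial covariate Gch1 was at 0.78 ± 0.26.

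Of 14 NF-kB and cytokine genes (median 0.34) 1 rose, the inhibitor Nfkbia, at 52.1, 37.7, 35.8 and 38.2 CPM in air and 63.3, 66.8, 56.4 and 76.9 CPM in smoke (log2 0.68 ± 0.13, adjusted p 0.0387). With the endothelial covariate it was at 0.33. Of 8 adhesion genes (median 0.44) 0 passed in edgeR, DESeq2 or limma voom, and 5 had an unadjusted p under 0.05 in edgeR. The receptors by which leukocytes attach were among these 8: Icam1 was at 0.54 ± 0.40 (adjusted p 0.513) and Vcam1 at 0.44 ± 0.16 (0.172). Of 21 interferon response genes 0 passed in edgeR, 4 in DESeq2 and 1 in limma voom, and 13 had an unadjusted p under 0.05 in edgeR. All 21 had positive log2 fold changes, with a median of 0.42, and Irf9, a subunit of the interferon-activated complex, was at 0.54 (adjusted p 0.062). With endothelial markers as a covariate, the adhesion median turned to −0.13 and the interferon median went to 0.04. In edgeR, 0 genes of either list were then at an unadjusted p under 0.05. The sums of these markers were higher in smoke without overlap, so their level and the exposure cannot be told apart. Vwf belongs both to the adhesion list and to these markers.

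Immediate early genes rose in 2 of 25, with a median of 0.23. Atf3, a stress-induced factor (chromosome 1, 191170296 to 191218039), was at 1.65, 1.63, 0.978 and 1.04 CPM in air and 4.54, 2.16, 4.12 and 3.38 CPM in smoke (log2 1.44 ± 0.28, adjusted p 0.0387), and Klf4, a factor that shear stress induces in endothelium, at 27.2, 27.4, 15.8 and 19.6 CPM and 47.2, 41.8, 40.0 and 47.1 CPM (log2 0.97 ± 0.16, adjusted p 0.0307). Klf4 was at 0.45 with the endothelial covariate. Fos was at −0.05 ± 0.43 (adjusted p 0.967). Of 19 glucocorticoid-induced genes (median 0.11) only Per1 passed; Tsc22d3 (GILZ) was at 0.47 ± 0.11 (adjusted p 0.0574), Fkbp5 at 0.11 ± 0.14 (0.698), Sgk1 at 0.32 ± 0.30 (0.611) and Cdkn1a at −0.40 ± 0.16 (0.215). Asns, asparagine synthetase, fell in the unfolded protein response list (1 of 18, median −0.07), at log2 −0.46 ± 0.10 (adjusted p 0.0443), while the chaperone Hspa5 was at −0.09 ± 0.24 (0.867). Heat shock genes passed in 0 of 16 in edgeR (median 0.09, 7 at an unadjusted p under 0.05), 3 in DESeq2 and 0 in limma voom, with Hspa1b, whose counts could be shared with its near copy Hspa1a, at 0.40 ± 0.31 (adjusted p 0.515).

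Genes of nuclear-encoded oxidative phosphorylation passed in 1 of 42: cytochrome c, Cycs, fell, from 19.4, 30.1, 29.0 and 20.5 CPM in air to 16.4, 15.8, 15.3 and 14.1 CPM in smoke (log2 −0.68 ± 0.15, adjusted p 0.0487). The list had a median of −0.17, with 35 of 42 negative. That median turned to 0.09 with endothelial markers as a covariate and was −0.04 with neuronal markers, and Cycs was at −0.45 with the endothelial ones. Hypoxia-induced genes passed in 0 of 16 in edgeR (median −0.01, 4 at an unadjusted p under 0.05), 2 in DESeq2 and 1 in limma voom. Cell cycle genes passed in 0 of 16 (median 0.18, 2 unadjusted) and 1 in DESeq2, and cholesterol and lipid synthesis genes in 0 of 20 (median 0.28, 10 unadjusted) and 4 in DESeq2. Nicotinic acetylcholine receptors (8 genes, median 0.03, 0 unadjusted) and ribosomal protein genes (38 genes, median −0.02, 2 unadjusted) had 0 calls in all 3 tools.

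**Figure D4:**
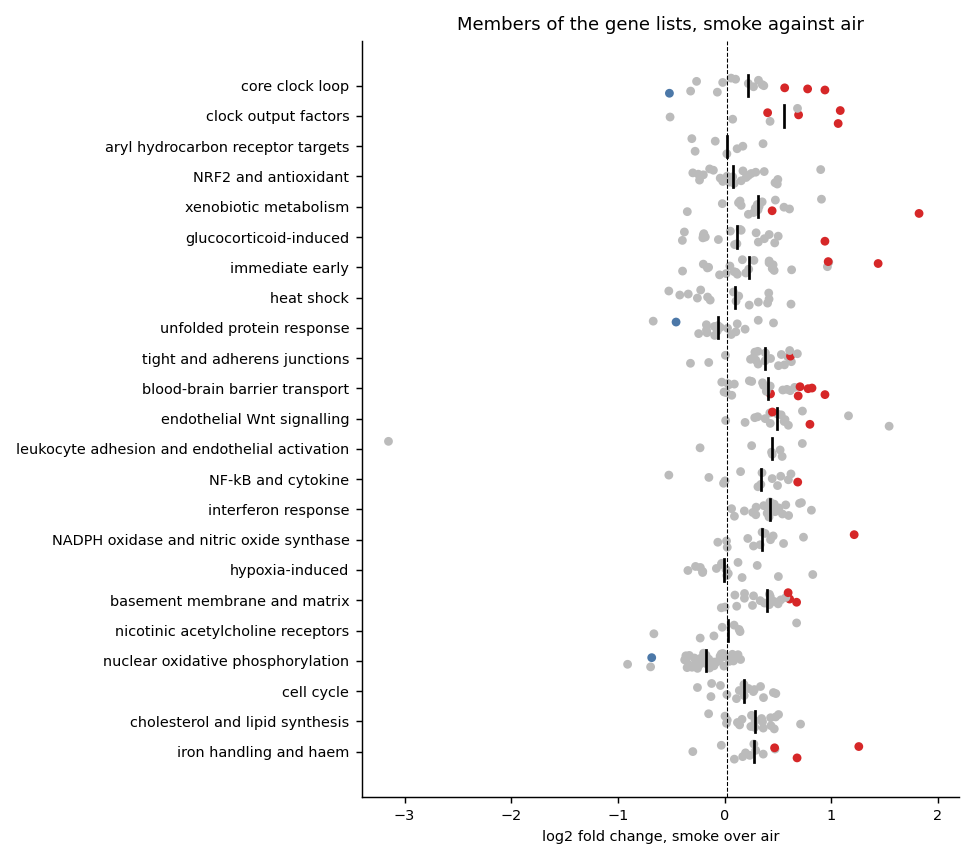
Log2 fold change, smoke over air, of the tested members of each pathway list (points): red rose, blue fell and grey did not pass an adjusted p of 0.05. Black bars are list medians and the dashed line is the median of all genes tested, 0.02; the clock, transporter, Wnt and matrix lists hold most of the red points.

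The summed level of microglial markers was higher in smoke. The 15 markers summed to 783 to 815 CPM in air and 889 to 1305 CPM in smoke, without overlap, all 15 had positive log2 fold changes (median 0.39), and 2 passed. Itgam, the integrin CD11b (chromosome 7, 128062640 to 128118491), read 23.0, 22.2, 21.8 and 22.3 CPM in air and 38.4, 54.2, 32.6 and 49.1 CPM in smoke (log2 0.96 ± 0.14, adjusted p 0.0241). Csf1r, the receptor on which microglia depend (chromosome 18, 61100598 to 61132149), read 142, 121, 127 and 133 CPM in air and 195, 251, 177 and 232 CPM in smoke (log2 0.71 ± 0.12, adjusted p 0.0303). In both genes the air libraries lay close together and all smoke libraries were above them, smoke 2 highest and smoke 3 lowest. Both were also above the Room-air set, which had 23.8, 27.4, 28.6 and 26.8 CPM of Itgam and 143, 159, 153 and 172 CPM of Csf1r on the scale over 19 libraries. Neither was beyond all 15 other libraries. Itgam reached 34.5 CPM in nicotine and 35.4 in nicotine-free, beside 32.7 in the lowest smoke library. Csf1r reached 197 and 180 CPM there, beside 178. The complement gene C1qb (0.16, adjusted p 0.622), Tmem119 (0.42, 0.0936) and P2ry12 (0.37, 0.1) did not pass. Perivascular macrophage markers passed in 0 of 6 in edgeR (median 0.24, 0 at an unadjusted p under 0.05, 0 in DESeq2) and astrocyte markers in 0 of 13 (median 0.22, 2 unadjusted, 1 in DESeq2). Other lists with 0 calls in edgeR, DESeq2 and limma voom were fibroblasts and meninges (10 genes, median 0.29, 3 unadjusted), striatal neurons (10, −0.11, 1), oligodendrocyte precursors (9, −0.02, 4), choroid plexus and ependyma (12, 0.40, 0) and lymphocytes (4, −0.41, 0).

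Neuronal and oligodendrocyte markers were lower at the median, at −0.30 and −0.37, and few passed. Of 20 neuronal markers 2 fell. One was Snap25, a synaptic vesicle fusion protein (chromosome 2, 136713453 to 136782428), at 938, 1134, 1437 and 879 CPM in air and 662, 722, 549.6 and 690.3 CPM in smoke (log2 −0.74 ± 0.17, adjusted p 0.0495), without overlap; with the neuronal markers, of which it is one, as a covariate it was at −0.41 and did not pass. The summed neuronal markers overlapped, at 10722 to 13875 CPM in air and 8013 to 13454 CPM in smoke. All 11 oligodendrocyte markers had negative values and 1 fell, the myelin lipid enzyme Ugt8a (−0.51 ± 0.11, adjusted p 0.0436); Mbp was at −0.28 (adjusted p 0.541).

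Blood cell markers differed in direction. Erythroid genes rose in 2 of 7 (median 0.82), Alas2 and the globin Hbb-bt. Hbb-bt, whose reads may be shared with its near copy Hbb-bs, was at 34.0, 36.8, 41.1 and 52.5 CPM in air and 75.8, 73.8, 57.1 and 83.4 CPM in smoke (log2 0.82 ± 0.15, adjusted p 0.0386), and Hbb-bs was at log2 0.60 (adjusted p 0.079). S100a8, a calcium-binding protein of neutrophils (chromosome 3, 90668978 to 90670035), fell from 0.9, 1.83, 1.58 and 0.942 CPM in air to 0.284, 0.135, 0.323 and 0.393 CPM in smoke (log2 −2.08 ± 0.40, adjusted p 0.0387). Of 9 neutrophil and monocyte markers 3 were tested and 1 passed, with a median of −1.26. The 9 summed to 4.05 to 6.5 CPM in air and 1.75 to 3.77 CPM in smoke, without overlap and at very low levels, and Ly6g had no count in any of the 8 libraries. Its partner S100a9 was at −1.26 (adjusted p 0.0978).

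**Figure D5:**
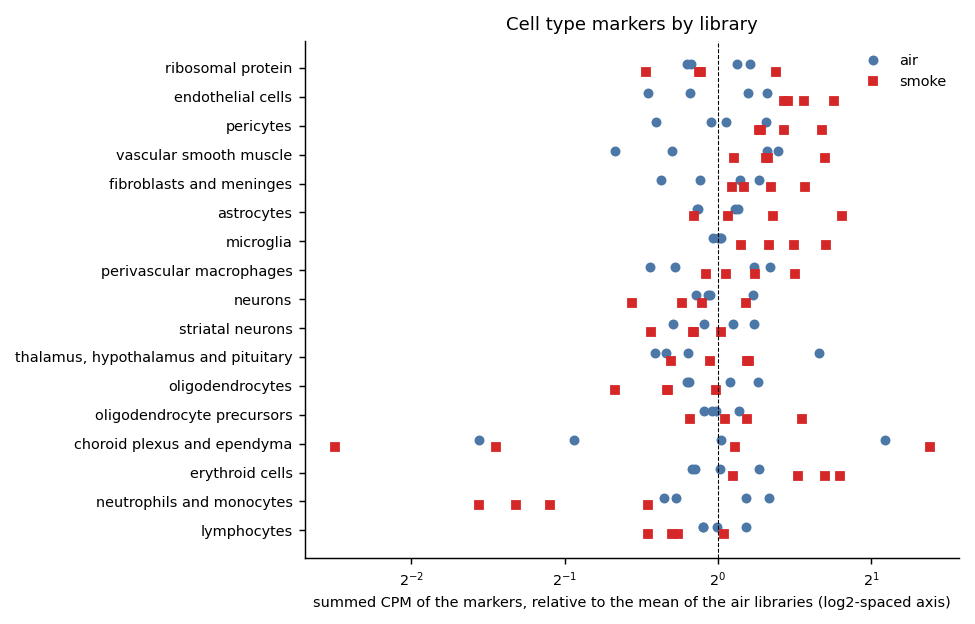
Summed CPM of each cell type's markers in each library, divided by the mean of the 4 air libraries, on a log2-spaced axis (circles air, squares smoke). Smoke lies wholly above air for endothelial cells and microglia and wholly below it for neutrophils and monocytes, and choroid plexus and ependyma markers spread most within both groups.

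Growth hormone, Gh, made by the pituitary (chromosome 11, 106300271 to 106301865), was the largest difference. Air 1 to 4 had 2, 0, 1 and 0 counts, whereas smoke 1 to 4 had 71, 40, 41 and 58. With 3 counts in air in all and 210 in smoke, the ratio of shares was 75.8, with a 95% counting interval of 25.6 to 371 that covers counting error only (edgeR adjusted p 0.000481). Every smoke library held far more than any air library. Prolactin, Prl, another pituitary hormone, had no count in any air library, which allows up to 3 over the group, and 4, 2, 3 and 2 counts in smoke. The further pituitary genes Pou1f1, Cga, Tshb and Fshb had 0 to 2 counts in every air and smoke library. Pou1f1 had 0, 0, 0 and 2 in air and 0, 0, 2 and 2 in smoke. Pomc, the precursor of corticotropin, rose from 3.30, 2.23, 3.09 and 2.36 CPM to 5.48, 7.69, 4.84 and 5.34 CPM (log2 1.06 ± 0.21, adjusted p 0.0387). Of the other libraries, nicotine-free 4 had 74 counts of Gh and 9 of Prl, the other nicotine-free libraries 4, 4 and 10 of Gh, Room-air 0, 0, 5 and 10, and nicotine none. On the scale over 19 libraries, Pomc was at 6.01 CPM in Room-air 1 and 5.14 in nicotine-free 3. Both lay within its smoke range of 4.86 to 7.85 CPM. In the list of thalamus, hypothalamus and pituitary genes, Gh and Pomc were the 2 of 7 tested that passed, and the median was −0.02. The presence of pituitary tissue in the smoke samples was not tested beyond these counts.

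Among the largest rises outside the lists, Ptch1, the Hedgehog receptor and itself a Hedgehog target (chromosome 13, 63508328 to 63573598), was at 10.9, 12.1, 14.4 and 14.8 CPM in air and 29.0, 40.1, 24.3 and 26.3 CPM in smoke (log2 1.19 ± 0.16, adjusted p 0.0196). All smoke libraries were higher, smoke 2 most, and with the endothelial covariate the value was 1.59 ± 0.24. Fads2, a desaturase of long-chain fatty acids (chromosome 19, 10062765 to 10101746), was at 55.9, 63.3, 65.6 and 72.6 CPM in air and 122, 208, 115 and 123 CPM in smoke (log2 1.14 ± 0.18, adjusted p 0.0307), smoke 2 far above the other smoke libraries. Luzp2, a leucine zipper protein, read 22.3, 25.7, 24.1 and 23.5 CPM in air and 47.1, 80.3, 32.4 and 51.6 CPM in smoke (log2 1.14 ± 0.23, adjusted p 0.0479). Fads2 and Luzp2 were beyond both room air sets in smoke, whereas Ptch1 in Room-air, at 32.1, 25.3, 24.9 and 16.7 CPM, overlapped it. The zinc finger gene Zfp366 (1.28 ± 0.21, adjusted p 0.0297), the repressor Bcl6b (1.28 ± 0.26, 0.0443) and Inmt, an N-methyltransferase (1.29 ± 0.26, 0.0414), also rose, at air levels of 2.13 to 8.70 CPM. With the endothelial covariate Bcl6b was at 0.65 ± 0.33 and Inmt at 0.84 ± 0.42, while Zfp366 moved by less than 1.5 times.

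After S100a8, the largest falls were in Vsnl1, a neuronal calcium sensor (chromosome 12, 11325242 to 11436613), and Pcp4, a calmodulin regulator (chromosome 16, 96467606 to 96525793). Vsnl1 was at 224, 335, 386 and 213 CPM in air and 141, 183, 112 and 146 CPM in smoke (log2 −0.995 ± 0.21, adjusted p 0.0495). Pcp4 was at 136, 192, 145 and 116 CPM in air and 77.7, 103, 57.5 and 62.4 CPM in smoke (log2 −0.98 ± 0.20, adjusted p 0.0473). In both, the lowest air library was above the highest smoke library. The median of the neuronal markers was also lower, at −0.30, and with them as a covariate Vsnl1 was at −0.54, Pcp4 at −0.66, Tuba8 at −0.54 and Myl4 at −0.40, and these 4 did not pass. Ipcef1 (−0.59, edgeR adjusted p 0.0288), Dpysl2 (−0.58, 0.0459) and Elavl4 (−0.55, 0.0321) still passed with it. Of the 17 named called genes that were lower, 4 passed with this covariate. The tubulin Tuba8 (−0.96 ± 0.20), Ipcef1 (−0.91 ± 0.15), Mcts2 (−0.84 ± 0.16), Tspyl5 (−0.82 ± 0.18), the axon guidance mediator Dpysl2 (−0.80 ± 0.14), the neuronal RNA-binding protein Elavl4 (−0.75 ± 0.12) and the myosin light chain Myl4 (−0.70 ± 0.16) fell as well, with adjusted p from 0.0254 to 0.0495. Mcts2 is a near copy of Mcts1, which counting could mix. Of the falls named here, only S100a8 and Efna5 were beyond both room air sets in smoke. Room-air overlapped smoke in Vsnl1 and Pcp4 on the scale over 19 libraries. Vsnl1 was at 105 to 182 CPM there, beside 112 to 187 in smoke, and Pcp4 at 54.6 to 74.0 CPM, beside 57.7 to 105. Efna5, an ephrin ligand, was at 4.20, 4.67, 4.74 and 4.43 CPM in air and 2.65, 2.29, 1.94 and 2.91 CPM in smoke (log2 −0.88 ± 0.19, adjusted p 0.0443). On the scale over 19 libraries it lay below all 15 other libraries in each of the 4 smoke libraries, whose values were 2.67, 2.34, 1.94 and 2.96 CPM, beside 4.61, 3.91, 5.11 and 4.11 CPM in Room-air.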

How the data were processed

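Polyadenylated RNA of cerebral microvessels was extracted with TRIzol and sequenced as single-end, strand-specific 80-nt reads, per the labels' protocols. The deposited values are raw read counts, which the authors made with STAR, HTSeq and the build mm10 (the same assembly as GRCm38), per the submitters' processing notes; versions and the strand setting of counting are not given in the sources used here, so overlapping genes on opposite strands are uncertain. The deposited counts of each library list 39179 genes and 5 summary rows that name no gene. These rows, 34.0 to 37.9% of the reads tallied in air and 29.4 to 33.7% in smoke, were left out. Symbols and positions (GENCODE M21) were found for 37607 genes, and 634 of 636 list genes were found. Depths are given above, and intervals cover counting error only.

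Smoke (4) and air (4) were compared in edgeR 4.0.16 in R 4.3.3: TMM, filterByExpr, robust quasi-likelihood F tests, two-sided, Benjamini-Hochberg adjustment over 15232 genes, threshold 0.05. CPM of single libraries use TMM-scaled totals of the 8 libraries, or of all 19 where stated. Alternatives were other scalings and filters, DESeq2 1.42.0 (24593 genes with a count), limma 3.58.1 voom, all 19 libraries, marker covariates, a replicate block and leaving out libraries. The test was checked on simulated data. The genes named are the 12 largest rises and 12 largest falls among called genes without overlap and with a mean of at least 1 CPM in the higher group, every called list member, and a fixed set of clock, barrier and smoke-response genes; unnamed genes, predicted models, pseudogenes and chromosome 18 were left out of the largest changes. The comparison, members and lists were chosen with earlier results of these data known. Marker lists share a few genes with pathway lists.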

Additional observations from a re-analysis of the deposited data

Results flagged for a closer look

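In 13 of 166 groups of 4 libraries tested over the named genes, 1 library stood apart: its gap to the nearest other library, divided by the group's range, exceeded Dixon's 95% critical value. Chance flags about 1 in 20 groups. The clock genes had 3. Per1 was at 89.1 CPM in air 2 and 62.5 to 65.4 in the other air libraries. Per2 was at 78.3 CPM in air 4 and 58.5 to 60.4 in the others. Ciart was at 30.0 CPM in smoke 4 and 18.8 to 19.6 in the others.

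Smoke 4 also stood apart for Slc7a5, at 187 CPM against 135 to 140.4 in the other smoke libraries. Smoke 3 did so for Lrp5, at 38.4 CPM against 26.4 to 28.3, for Myl4, at 8.80 against 12.8 to 13.1, and for Fkbp5, at 15.6 against 19.5 to 20.2. Fads2 was at 208 CPM in smoke 2 and 115 to 123 in the others. Ahrr was at 1.89 CPM in smoke 1 and 2.26 to 2.29 in the others.

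In the air group, Asns was at 38.7 CPM in air 4 and 47.8 to 49.2 in the other air libraries, and Nfkbia at 52.1 in air 1 and 35.8 to 38.2 in the others. Air 2 stood apart for Cyp2d22, at 66.5 CPM against 58.9 to 59.8, and for Tiparp, at 16.5 against 9.90 to 10.9. The groups of each called gene among these did not overlap, which held for all 244 called genes whichever library stood apart.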

How the results depend on the processing

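The count of 244 genes (165 higher, 79 lower) moved by over 1.5 times in most alternatives, and the cause was not tested. DESeq2 called 913 (530 and 383), limma voom with quality weights 406 (277 and 129), no filter on low counts 466 (316 and 150) and a fit of all 19 libraries 519 (274 and 245). Marker covariates gave 732 for choroid plexus (504 and 228), 393 for neurons (345 and 48; 93 of them among the 244) and 0 for endothelial cells (0 and 0; 1153 at an unadjusted p under 0.05). Leaving out 1 library gave 1 to 192 called, 1 to 155 higher and 0 to 37 lower. Without air 4 and smoke 3, an alternative chosen after seeing the data, 28 were called (22 and 6). RLE size factors (197), upper-quartile factors (215) and a CPM filter (243) stayed within 1.5 times. Smoke was higher in 67.6% of the calls, 58.6% with upper-quartile factors, 52.8% in the fit of all libraries and 87.8% with the neuron covariate.

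With the replicate number as a block, 5 genes passed (4 higher, 1 lower). The correlations of same-numbered libraries' deviations were 0.0385, 0.2235, −0.0292 and −0.3896, not every library correlated best with its own number, and no label says that the numbers pair samples.

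Reversals of log2 fold change occurred only in 8 named genes that did not pass. With the endothelial covariate Cldn5 was at −0.29, Cyp1b1 at −0.74, Icam1 at −0.065 and Nqo1 at 0.80. With the neuron covariate Cyp1b1 was at −0.16, Fos at 0.39 and Sgk1 at −0.25. Fos was at 0.0044 with the choroid covariate, 0.14 in limma voom and 0.046 with the replicate block, and Cyp1b1 at −0.0037 without air 4 and smoke 3. Leaving out 1 library, Cyp1b1 ran from −0.13 to 0.32, Fos from −0.30 to 0.36, Hlf from −0.073 to 0.20, Hspa5 from −0.25 to 0.043, Nqo1 from −0.65 to 0.11 and Sgk1 from −0.074 to 0.44. Values of the 83 named genes stayed on the same side in 1047 cases, lost the threshold in 568, gained it in 17 and reversed in 23. Genes near 1 CPM, such as S100a8, rest on few counts per library.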

Other observations

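Further called genes outside the lists were picked after their values were seen, as genes of known function. The receptors Notch1 and Notch3, the latter of mural cells, rose from 49.9 ± 4.58 to 78.4 ± 8.89 and from 31.4 ± 5.94 to 53.1 ± 4.49 CPM (mean ± SD, n = 4 libraries, air to smoke), with log2 fold changes of 0.65 ± 0.11 (adjusted p 0.0297) and 0.76 ± 0.13 (0.0336). Smo, the Hedgehog signal transducer that Ptch1 inhibits, rose by 0.76 ± 0.17 (adjusted p 0.0479), and Bmpr2, a BMP receptor, by 0.89 ± 0.15 (0.0303). Pdgfb, the endothelial growth factor that recruits pericytes, rose from 65.8 ± 10.3 to 98.8 ± 9.67 CPM (log2 0.59 ± 0.12, adjusted p 0.0414). Sik1, a kinase that cAMP and light induce in clock cells, rose from 15.4 ± 1.29 to 27.6 ± 1.66 CPM (log2 0.85 ± 0.10, adjusted p 0.0101). Ddc, which makes dopamine and serotonin from their precursors, rose by 0.86 ± 0.13 (adjusted p 0.0254), and Fcgrt, the antibody-recycling Fc receptor, by 0.67 ± 0.11 (0.0303).

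Among the falls, the calcineurin subunits Ppp3ca and Ppp3r1 were lower by log2 −0.69 ± 0.13 (adjusted p 0.0387) and −0.67 ± 0.14 (0.0443). Ppp3ca went from 958 ± 122 to 594 ± 65.1 CPM. Akap5, an anchoring protein that holds calcineurin and protein kinase A at synapses, went from 44.7 ± 3.95 to 28.6 ± 2.91 CPM (log2 −0.65 ± 0.10, adjusted p 0.0297), and its 4 smoke libraries lay below all 15 other libraries. Scn1a, a sodium channel, fell by log2 −0.42 ± 0.09 (adjusted p 0.0443). Apart from Akap5, none of the called genes named in this section, higher or lower, was beyond both room air sets in smoke.

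Neuropeptide counts spread widely within the air group. Air 2 had 318 counts of Pmch and 60 of Hcrt, peptides of the lateral hypothalamus, beside 4 to 54 and 2 to 20 in the other air libraries and 1 to 5 and 0 to 5 in smoke. Room-air 1 had 1078 counts of vasopressin, Avp, and 659 of oxytocin, Oxt, beside 6 to 28 and 2 to 7 in smoke.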
